A study of Mus musculus with 8 samples.

Results

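Aminoacyl-tRNA synthetases are the enzymes that join each amino acid to its own transfer RNA, and their mRNAs were followed in mouse macrophages before and after M1 activation. The members were the rows of the array whose gene symbol is 1 capital letter followed by "ars" or "ars2", together with Eprs, Farsa and Farsb. They came to 34 genes on 56 probe rows, of 18138 genes on 25697 rows. Of the 34 genes, 20 encode cytosolic enzymes, counting Gars and Kars, whose products serve the cytosol and mitochondria alike, and 14 encode mitochondrial enzymes. The array's annotation describes Vars as a mitochondrial protein, but Vars encodes the cytosolic valyl enzyme and was counted there.

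Bone marrow cells of female C57bl/6J wild-type (WT) mice or of mice lacking inducible nitric oxide synthase (iNOS-/-), aged 8 weeks, were grown in GM-CSF at 10 ng/ml for 7 days. They were then left unstimulated or activated to the M1 state with LPS at 200 ng/ml plus IFN-γ at 10 ng/ml for 6 h. RNA was hybridised to 8 single-colour Illumina bead arrays, 2 for each of the 4 groups. The knockout is a germline allele present in every cell of the animal, and nothing in the labels says whether the 2 arrays of a group came from separate mice, so p-values measure the spread between these arrays, which may be technical.

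Cells carry a cytosolic set of synthetases that feeds the ribosomes translating nuclear transcripts, and a separate set, also encoded in the nucleus and imported, that feeds the mitochondrial ribosomes. Many cytosolic synthetase genes are known targets of ATF4, the transcription factor of the amino acid response. Wars, the tryptophanyl enzyme of the cytosol, is in addition a classical interferon-γ-induced gene. Several cytosolic synthetases travel together in the multi-synthetase complex, held by the scaffold proteins Eef1e1, Aimp1 and Aimp2.

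A probe was tested if 2 or more arrays gave it a detection p-value below 0.05, and a gene is given by its brightest tested probe. By this rule 29 of the 34 synthetase genes were tested, 18 cytosolic and 11 mitochondrial, and 26 were detected on all 8 arrays. The 5 genes not tested were the cytosolic Cars and Yars and the mitochondrial Hars2, Nars2 and Yars2. Cars and Nars2 were detected on 1 array each, and Hars2, Yars and Yars2 on 0 arrays. Values are log2 intensities after scaling between arrays, changes are log2 differences of group means ± SE, and "called" means an adjusted p under 0.05 in limma over 13868 probes. Intensities of different probes are not compared with each other. The 2 arrays of a group differed by a median of 0.10 to 0.16 over the tested members, on the log2 scale.

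On each array 46 to 49.3% of rows were detected. All 8 macrophage markers were detected on all arrays, while Cd3e, Cd3g, Cd4 and Cd8a of T cells and Ms4a1 of B cells were detected on none. Some properties of the arrays bear on every comparison with the iNOS-/- groups. Nos2, the gene encoding iNOS, stood at log2 intensities of 7.47 and 7.05 on the WT M1 arrays and 7.49 and 7.67 on the arrays labelled iNOS-/- M1, a difference of 0.32 ± 0.32 (adjusted p = 0.445). The Nos2 probe starts at base 3546, and whether it lies outside the disrupted stretch is not given in the sources used here, so the genotypes below rest on the labels. Arrays labelled iNOS-/- unstimulated were also closer to WT M1 arrays (median absolute log2 difference over all tested probes 0.34 to 0.36) than to WT unstimulated arrays (0.48 to 0.49). Summed levels of dendritic cell markers, made up mostly of Ccl17 and Il4i1, were 833 to 839 on WT unstimulated arrays, 16200 to 16700 on WT M1, 13700 to 14500 on iNOS-/- unstimulated and 34800 to 36600 on iNOS-/- M1. A further gene of that list, Cd209a, went the other way there, at least 5.25-fold lower after activation in iNOS-/- cells, and Itgax was not called (-0.44 ± 0.15, adjusted p = 0.0646). Each sum adds intensities of different probes and serves only to set arrays side by side. Those of dividing-cell markers were 707 to 796, 2160 to 2290, 2580 to 2600 and 937 to 938 in the same order. Granulocyte markers, made up mostly of S100a8, summed to 1130 to 1150, 1400 to 1510, 1690 to 1750 and 3870 to 4000, with Mpo and Prtn3 detected on none. In WT 4 of the 7 tested granulocyte markers rose (57.1%, against 20.9% of all genes) and 1, Mmp8, fell (14.3%, against 15.5%). Its mean log2 intensities were 7.52, 5.79, 6.19 and 6.18 in the same order. Mast cell markers, of which Mcpt8 was undetected, summed to 0 to 0.803, 24.5 to 31.8, 84.8 to 97.7 and 116 to 123. Of the 8 macrophage markers 2 (25%) were called higher and 4 (50%) lower in iNOS-/- than in WT M1 cells. Over all genes 23.7% were called higher and 26% lower there, so the share higher was near the background. In RNA from a mixed culture, fewer cells of a type and less RNA per cell cannot be told apart, and the part of these shifts in the synthetase results was not tested.

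The question of the first comparison was how the synthetases respond to M1 activation in WT cells. Of 18 cytosolic genes tested, 9 rose (Aars, Gars, Kars, Lars, Mars, Qars, Sars, Vars and Wars) and 0 fell, with a median change of 0.52. Of 11 mitochondrial genes, Sars2 rose and Fars2 fell, and the median was 0.05. Over all 10163 genes tested, 20.9% were called higher and 15.5% lower in this comparison, with a median of 0.06. The 9 cytosolic calls are 50% of those tested, above the background share, and the mitochondrial calls are 9.09% in each direction.

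In iNOS-/- cells the same activation separated the family. Among cytosolic genes 5 rose (Aars, Kars, Rars, Wars and Gars, the last with a change of -0.19 under quantile normalization and neqc) and 7 fell (Dars, Farsb, Iars, Mars, Qars, Sars and Vars), with a median of 0.17. Among mitochondrial genes 8 of 11 fell (Aars2, Fars2, Iars2, Lars2, Mars2, Pars2, Vars2 and Wars2), only Ears2 rose, and the median was -1.14. Over all genes 25.2% were called higher and 26.8% lower, with a median of -0.01. The mitochondrial share called lower, 72.7%, is thus well above the background, whereas the cytosolic shares, 27.8% higher and 38.9% lower, are nearer to it. Aars2 and Wars2 were undetected on both iNOS-/- M1 arrays. With a floor of 16 or with an intercept in the scaling line, Aars2 (0 and -0.36), Pars2 (-0.32 in both) and Wars2 (-0.22 and -0.66) were not called, which left 5 mitochondrial genes lower. Wars2 was not called with the mean of its probes either (-0.58, adjusted p = 0.0882).

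**Figure D1:**
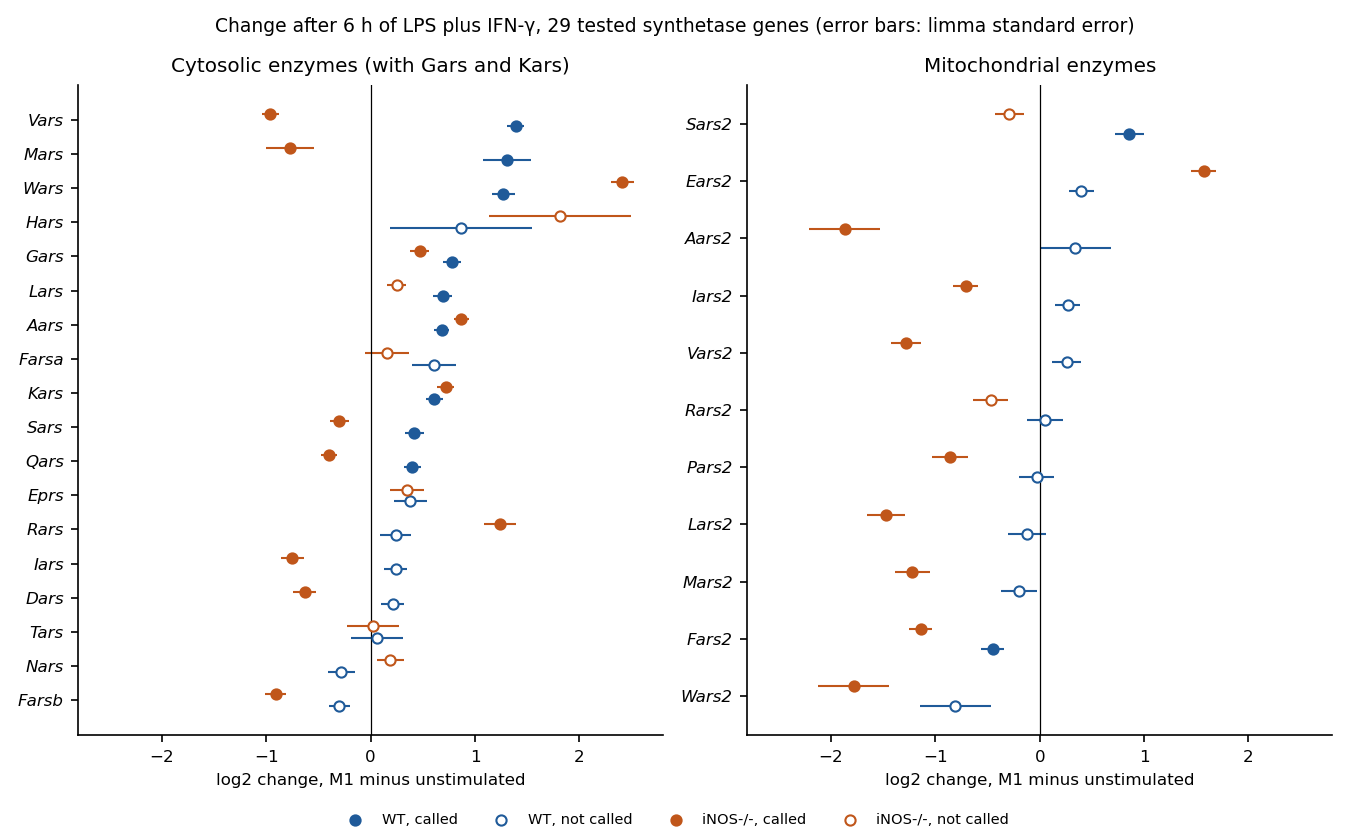
Log2 change after 6 h of LPS plus IFN-γ (x axis, M1 minus unstimulated, bars ± SE) for the 18 cytosolic and 11 mitochondrial synthetase genes tested, in WT (blue) and iNOS-/- (orange) cells, with filled points called at adjusted p under 0.05. Vars and Mars lie on opposite sides of 0 in the 2 genotypes, Wars lies far to the right in both, and of the mitochondrial genes Ears2 alone has a called change to the right in iNOS-/- cells.

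Wars, the interferon-γ-inducible tryptophanyl enzyme, had the largest rise of the family in iNOS-/- cells. Its log2 intensity was 7.44 and 7.52 on the WT unstimulated arrays, 8.73 and 8.77 on WT M1, 7.91 and 7.67 on iNOS-/- unstimulated, and 10.22 and 10.18 on iNOS-/- M1. Both M1 groups lay above both unstimulated groups, and the iNOS-/- M1 arrays were the highest of all, with no overlap. The rise was 1.27 ± 0.11 in WT (2.41-fold, adjusted p = 0.00102) and 2.41 ± 0.11 in iNOS-/- cells (5.32-fold, adjusted p = 6.99e-05), and the responses differed by 1.14 ± 0.15 (adjusted p = 0.00359).

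The Wars call rests on 4 probes, all of them tested. They start at bases 151, 1141, 1413 and 1639 of the transcript, and the last is the brightest and gives the values above. In WT the 4 probes rose by 1.59, 2.27, 2.29 and 1.27 in that order, and in iNOS-/- cells by 3.28, 3.48, 2.74 and 2.41, all 8 changes called. The brightest probe thus gave the smallest rise in both genotypes. The difference between the responses was called for the probes from base 151 (1.69 ± 0.33, adjusted p = 0.0116) and base 1639, but not for those from base 1141 (1.21 ± 0.39, adjusted p = 0.0556) and base 1413 (0.46 ± 0.18, adjusted p = 0.0939). The sequences of the 3 dimmer Wars probes, each of 50 bases, are shown as the further readings of the Wars rise, together with the probes that gave the values of Rars and Mars.
Wars, probe from base 151: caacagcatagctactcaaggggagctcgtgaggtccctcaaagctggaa
Wars, probe from base 1141: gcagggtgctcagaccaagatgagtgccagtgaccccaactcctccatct
Wars, probe from base 1413: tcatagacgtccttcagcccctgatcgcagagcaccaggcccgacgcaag
Rars, probe from base 1386: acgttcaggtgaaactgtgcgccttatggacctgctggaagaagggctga
Mars, probe from base 2445: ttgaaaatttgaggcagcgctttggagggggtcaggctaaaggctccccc

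**Figure D2:**
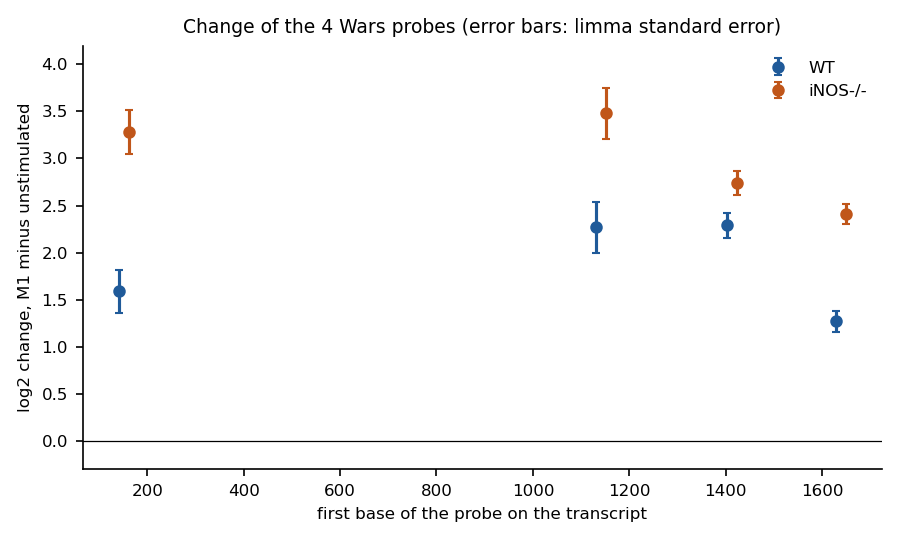
Log2 change after M1 activation (y axis, ± SE) of the 4 Wars probes against the first base of each probe on the transcript (x axis), in WT (blue) and iNOS-/- (orange) cells. All 8 values lie between 1.27 and 3.48, and at each position the iNOS-/- value is the higher.

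Alanyl (Aars), glycyl (Gars) and lysyl (Kars) enzymes were also called higher in both genotypes after activation, Gars in iNOS-/- cells only without quantile normalization or neqc. Aars rose by 0.68 ± 0.07 in WT (adjusted p = 0.00238) and by 0.87 ± 0.07 in iNOS-/- cells (adjusted p = 0.000498). Its arrays ran from 8.99 in WT unstimulated to 10.45 in iNOS-/- M1, with no overlap between the compared groups. Kars stood at 7.18 and 7.24 on WT unstimulated arrays, 7.78 and 7.85 on WT M1, 7.61 and 7.59 on iNOS-/- unstimulated and 8.3 and 8.33 on iNOS-/- M1. These are rises of 0.61 ± 0.08 and 0.72 ± 0.08 (adjusted p = 0.00397 and 0.00117). Gars gave 10.93 and 10.84 on WT unstimulated arrays, 11.6 and 11.73 on WT M1, 11.61 and 11.54 on iNOS-/- unstimulated and 12.01 and 12.08 on iNOS-/- M1. It rose by 0.78 ± 0.09 in WT (adjusted p = 0.00289), and its change of 0.47 ± 0.09 in iNOS-/- cells (adjusted p = 0.00891) is the one that turned to -0.19 under quantile normalization and neqc and was not called without iNOS-/- unstimulated replicate 2 (0.44, adjusted p = 0.0504). The difference between the genotypes' responses was not called for Aars (0.19 ± 0.11), Kars (0.11 ± 0.11) or Gars (-0.31 ± 0.13), with adjusted p of 0.198, 0.489 and 0.111. That of Kars was called in no alternative. The Gars difference was called in 5 of 17 alternatives, reaching -0.96 under quantile normalization (adjusted p = 0.00296), and the Aars difference in 2 (0.19 with a floor of 16 or no detection filter), with a turn to -0.31 under quantile normalization (adjusted p = 0.0667).

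Rars and Ears2 were called higher after activation in iNOS-/- cells and not in WT cells. Rars, the arginyl enzyme, stood at 8.46 and 8.32 on WT unstimulated arrays, 8.48 and 8.77 on WT M1, 8.13 and 8.15 on iNOS-/- unstimulated and 9.25 and 9.52 on iNOS-/- M1. The iNOS-/- M1 arrays were above all others. It changed by 0.24 ± 0.15 in WT (adjusted p = 0.274) and rose by 1.24 ± 0.15 in iNOS-/- cells (2.37-fold, adjusted p = 0.00155). The difference of 1.01 ± 0.21 (adjusted p = 0.0147) lost its call without WT unstimulated replicate 1 (0.94, adjusted p = 0.0512) or iNOS-/- unstimulated replicate 1 (0.99, adjusted p = 0.0503).

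Ears2, the mitochondrial glutamyl enzyme, also charges the mitochondrial glutamine tRNA with glutamate, which a transamidase then converts. Its arrays read 5.27 and 5.21 in WT unstimulated, 5.76 and 5.52 in WT M1, 6.01 and 6.06 in iNOS-/- unstimulated and 7.5 and 7.71 in iNOS-/- M1 cells, so each group lay above the group named before it, without overlap. The change was 0.40 ± 0.12 in WT (adjusted p = 0.0568) and 1.57 ± 0.12 in iNOS-/- cells (2.98-fold, adjusted p = 0.00038). The difference of 1.17 ± 0.18 was called (adjusted p = 0.00524).

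Vars, Mars, Qars and Sars, for valine, methionine, glutamine and serine, rose in WT and fell in iNOS-/- cells by their brightest probes. They are 4 of the 29 tested members (13.8%), where 5.31% of all tested genes had this combination of calls. Vars stood at 6.56 and 6.66 on WT unstimulated arrays, 7.99 and 8 on WT M1, 8.11 and 8.03 on iNOS-/- unstimulated and 7.08 and 7.15 on iNOS-/- M1. WT M1 and iNOS-/- unstimulated arrays were thus the high groups. Vars rose by 1.39 ± 0.08 in WT (adjusted p = 0.000343) and changed by -0.96 ± 0.08 in iNOS-/- cells (adjusted p = 0.000554). Its probe from base 3831 was called in the same directions (1.40 ± 0.17 and -1.07 ± 0.17). The probe from base 1750 had the same signs but was called in neither response (2.87 ± 1.27 and -1.79 ± 1.27). With the mean of its probes the iNOS-/- change was not called (-1.27, adjusted p = 0.071). On the brightest probe the responses ran in opposite directions and differed by 5.07-fold, a log2 difference of -2.34 ± 0.12 (adjusted p = 0.000302).

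Mars gave 4.83 and 4.98 on WT unstimulated arrays, 6.24 and 6.18 on WT M1, 6.31 and 6.25 on iNOS-/- unstimulated, and 5.17 and 5.85 on iNOS-/- M1. The last pair was the most widely spread of these. Mars rose by 1.31 ± 0.23 in WT (adjusted p = 0.0103), a call lost without WT unstimulated replicate 1 (1.23, adjusted p = 0.0557) or WT M1 replicate 1 (1.28, adjusted p = 0.0524). Its change of -0.77 ± 0.23 in iNOS-/- cells (adjusted p = 0.0382) was not called in 10 of 18 alternatives. The difference in response, -2.08 ± 0.32 (adjusted p = 0.00586), was called in every alternative run.

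Qars read 9.77 and 9.88 on WT unstimulated arrays, 10.2 and 10.25 on WT M1, 10.16 and 10.13 on iNOS-/- unstimulated and 9.74 and 9.75 on iNOS-/- M1. The pattern of high and low groups was that of Vars, over a narrower range. Its changes were 0.40 ± 0.08 (adjusted p = 0.0172) and -0.40 ± 0.08 (adjusted p = 0.0112), and those of Sars were 0.42 ± 0.09 (adjusted p = 0.0222) and -0.30 ± 0.09 (adjusted p = 0.0452). The WT call of Qars was lost without WT unstimulated replicate 1 or either WT M1 array, with adjusted p of 0.0571 to 0.0834, and its iNOS-/- call without iNOS-/- unstimulated replicate 1 (adjusted p = 0.0566). The WT call of Sars was lost without either WT unstimulated array or WT M1 replicate 1, with adjusted p of 0.0831 to 0.0905, and its iNOS-/- call without any single array of either iNOS-/- group or of the WT unstimulated group, with adjusted p of 0.077 to 0.142. The difference in response was called for Qars (-0.80 ± 0.12, adjusted p = 0.00476) and Sars (-0.72 ± 0.13, adjusted p = 0.0101). The other tested probe of Sars, from base 1315, gave 0.04 ± 0.15 in WT, -0.01 ± 0.15 in iNOS-/- cells, -0.06 ± 0.15 between the M1 groups and -0.05 ± 0.22 for the difference, none called, and with the mean of its probes Sars was called in neither response (0.23 and -0.16, adjusted p = 0.0914 and 0.184) nor for the difference (-0.39, adjusted p = 0.0508), so the Sars values rest on 1 probe.

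The dividing-cell marker list had the same order of groups, high on the WT M1 and iNOS-/- unstimulated arrays. Of its 9 tested genes, 8 rose and 0 fell in WT (median 1.51), and 0 rose and 7 fell in iNOS-/- cells (median -1.68). Over all genes 20.9% were called higher and 15.5% lower in WT, and 25.2% and 26.8% in iNOS-/- cells. The part of dividing cells in the values of Vars, Mars, Qars and Sars was not tested.

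Further cytosolic genes fell in iNOS-/- cells without a called change of their brightest probe in WT. Iars, the isoleucyl enzyme, read 8.29 on both WT unstimulated arrays, 8.65 and 8.41 on WT M1, 9.16 and 9.06 on iNOS-/- unstimulated and 8.35 and 8.37 on iNOS-/- M1. On this probe only the iNOS-/- unstimulated pair stood well above the rest. Iars changed by 0.24 ± 0.11 in WT (adjusted p = 0.147) and by -0.75 ± 0.11 in iNOS-/- cells (adjusted p = 0.00305). Its other tested probe, from base 4020, read 7.31 and 7.24, 7.86 and 7.93, 8.03 and 7.94, and 7.25 and 7.33 in the same order, so that WT M1 was high as well. That probe was called higher in WT (0.62 ± 0.09, adjusted p = 0.00526) and lower both in iNOS-/- cells (-0.70 ± 0.09, adjusted p = 0.00186) and between the M1 groups (-0.61 ± 0.09, adjusted p = 0.00357). Dars, the aspartyl enzyme, stood at 8.33 and 8.48, 8.54 and 8.69, 8.67 and 8.56, and 8.05 and 7.91, with the groups in the order used for Iars. Its change in iNOS-/- cells was -0.63 ± 0.11 (adjusted p = 0.00681), and the iNOS-/- M1 arrays were the lowest. The other tested Dars probe, from base 540, gave -0.19 ± 0.12 there (adjusted p = 0.243) and a difference in response of -0.50 ± 0.17 (adjusted p = 0.0701), neither called, but was called lower between the M1 groups (-0.65 ± 0.12, adjusted p = 0.00903). Farsb, the beta subunit of the phenylalanyl enzyme, stood at 9.74 and 9.84, 9.58 and 9.4, 9.12 and 9.22, and 8.25 and 8.28 in the same order. The iNOS-/- M1 pair was again the lowest, a change of -0.91 ± 0.10 (adjusted p = 0.00135). Farsa, which encodes the alpha subunit of that enzyme, changed by 0.61 ± 0.21 in WT and 0.16 ± 0.21 in iNOS-/- cells, neither called (adjusted p = 0.0793 and 0.579).

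Lars, the leucyl enzyme, read 6.88 and 6.89 in WT unstimulated, 7.64 and 7.51 in WT M1, 7.41 and 7.48 in iNOS-/- unstimulated, and 7.66 and 7.74 in iNOS-/- M1 cells. WT unstimulated arrays were the low group. Lars rose by 0.69 ± 0.09 in WT (adjusted p = 0.00405) and changed by 0.25 ± 0.09 in iNOS-/- cells (adjusted p = 0.0663). Eprs, the joint glutamyl and prolyl enzyme, gave 6.56 and 6.3, 6.89 and 6.72, 6.77 and 6.81, and 6.97 and 7.3 in that order. Its changes of 0.38 ± 0.16 and 0.35 ± 0.16 were not called (adjusted p = 0.126 and 0.124), while its other tested probe was called higher in iNOS-/- cells at 0.91. Nars, Tars and Hars had no called change either. Hars ran from 0.90 to 4.14 over the arrays and was detected on 7 of 8.

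**Figure D3:**
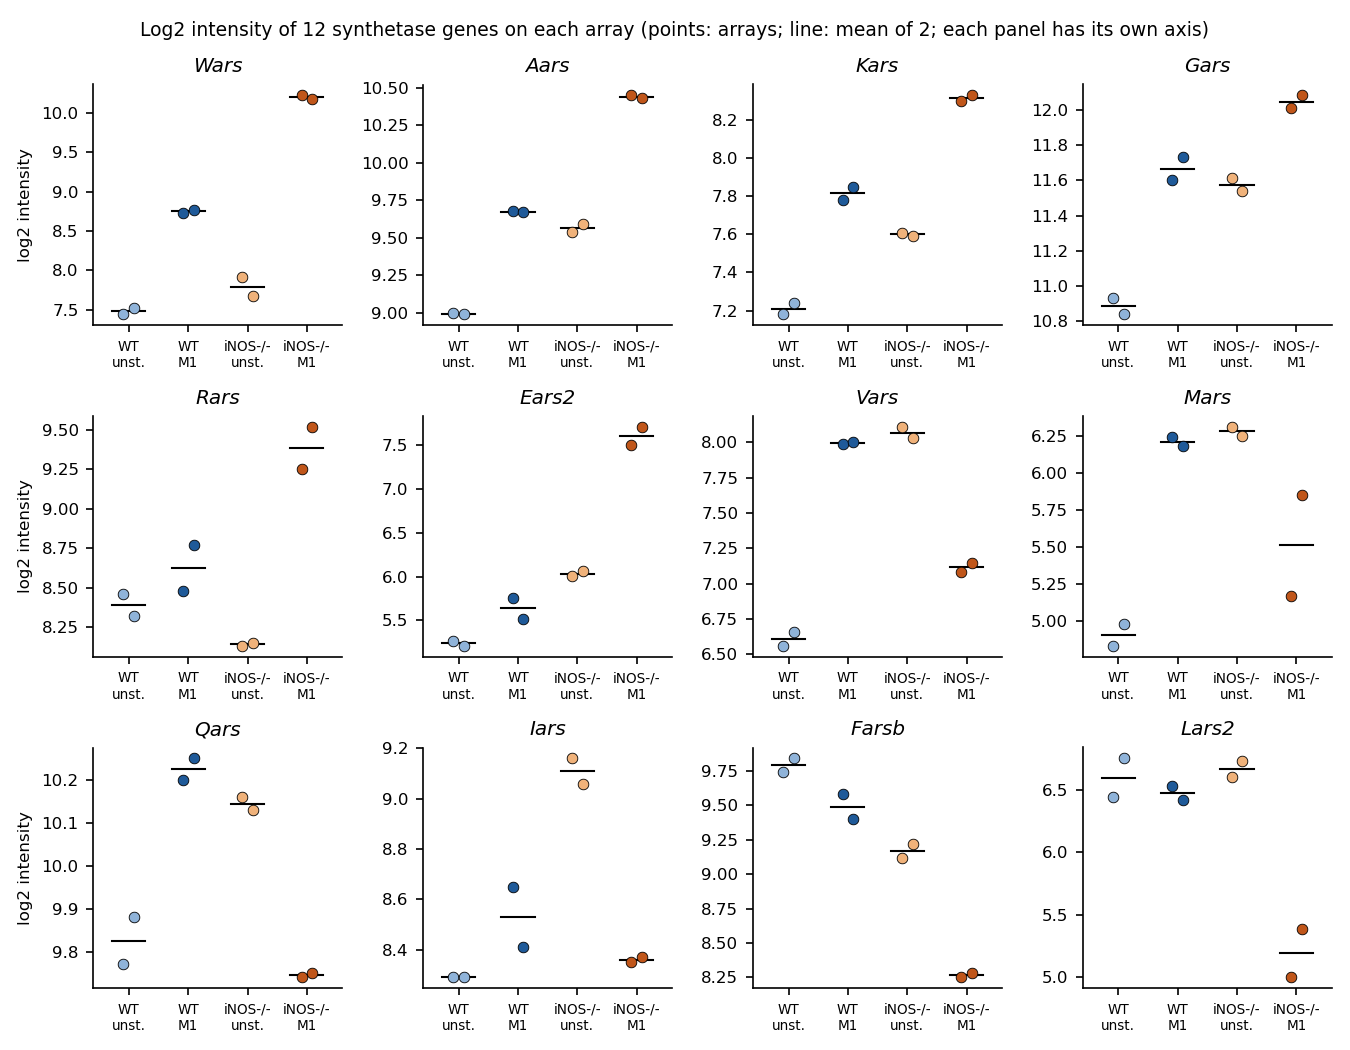
Log2 intensity (y axis, a separate scale in each panel) of 12 synthetase genes on each of the 8 arrays, grouped on the x axis by genotype and stimulation, with points for arrays and a line for the mean of the 2. Wars, Aars, Kars, Gars, Rars and Ears2 are highest on the iNOS-/- M1 arrays (Gars not under quantile normalization or neqc, at -0.09 against WT M1), Farsb and Lars2 are lowest there, and Vars, Mars and Qars are high on the WT M1 and iNOS-/- unstimulated arrays.

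In the mitochondrial set, 8 of the 11 tested genes were called lower after activation in iNOS-/- cells. Lars2, the leucyl enzyme of mitochondria, stood at 6.44 and 6.75 in WT unstimulated, 6.53 and 6.42 in WT M1, 6.6 and 6.73 in iNOS-/- unstimulated and 5 and 5.39 in iNOS-/- M1 cells. The first 3 groups lay together and the last lay below all of them. The change was -1.47 ± 0.18 in iNOS-/- cells (2.77-fold lower, adjusted p = 0.00159) against -0.12 ± 0.18 in WT (adjusted p = 0.637), and the responses differed by -1.35 ± 0.25 (adjusted p = 0.0101).

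Vars2, the valyl enzyme, stood at 5.35 on both WT unstimulated arrays, 5.54 and 5.68 on WT M1, 6.15 and 5.95 on iNOS-/- unstimulated and 4.92 and 4.62 on iNOS-/- M1. Its lowest pair was again iNOS-/- M1. It changed by -1.28 ± 0.14 in iNOS-/- cells (adjusted p = 0.00111) and by 0.26 ± 0.14 in WT (adjusted p = 0.21), a difference of -1.54 ± 0.20 (adjusted p = 0.00316). Fars2 (phenylalanyl, -1.14 ± 0.11), Mars2 (methionyl, -1.22 ± 0.17), Iars2 (isoleucyl, -0.71 ± 0.12) and Pars2 (prolyl, -0.86 ± 0.17) also fell, with adjusted p from 0.000754 to 0.0088. Fars2 alone of these was called in WT too, at -0.45 ± 0.11 (adjusted p = 0.0288). That WT call was lost when any single array of the WT or the iNOS-/- unstimulated groups was left out, with adjusted p of 0.0577 to 0.126.

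Wars2 and Aars2 could be measured only in part. Wars2, the mitochondrial tryptophanyl enzyme, read 4.31 and 3.72 in WT unstimulated, 3.19 and 3.23 in WT M1, 3.56 and 4.44 in iNOS-/- unstimulated, and 2.1 and 2.33, undetected, in iNOS-/- M1 cells. Its change after activation in iNOS-/- cells was -1.78 ± 0.34 on this probe (adjusted p = 0.00861). By group means it was at least 2.14-fold lower there, a bound set by the dimmest detected probes. Its second tested probe gave 0.62 ± 0.38 there (adjusted p = 0.236), so the probes of Wars2 disagreed. Aars2, the alanyl enzyme, read 2.66 and 2.42, 2.52 and 3.25, 3.02 and 3.75, and 1.4 and 1.64 in the same order of groups, and was detected on 4 of 8 arrays. Its change in iNOS-/- cells was -1.87 ± 0.34 (adjusted p = 0.00731), with a bound by group means of at least 1.4-fold lower after activation. The Wars gene of the cytosol thus rose in both genotypes while its mitochondrial counterpart Wars2 was called higher in neither.

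Sars2 and Rars2 complete the mitochondrial set. Sars2, the seryl enzyme, stood at 4.08 and 3.91 in WT unstimulated, 4.9 and 4.81 in WT M1, 4.45 and 4.76 in iNOS-/- unstimulated, and 4.29 and 4.33 in iNOS-/- M1 cells, so that WT M1 was highest. It rose by 0.86 ± 0.14 in WT (adjusted p = 0.0075) and changed by -0.29 ± 0.14 in iNOS-/- cells (adjusted p = 0.131), a difference of -1.15 ± 0.19 (adjusted p = 0.00728). The brightest Rars2 probe, from base 1465, changed by -0.47 ± 0.17 in iNOS-/- cells without a call (adjusted p = 0.0725). Its probes from base 1410 (-0.82 ± 0.10, adjusted p = 0.00175) and base 1524 (-0.68 ± 0.13, adjusted p = 0.00958) were called lower. For the difference in response 2 of the 3 Rars2 probes were called negative, with values of -1.13 to -0.52 over the 3. Between the M1 groups 1 of the 3 was called lower, that from base 1410 (-0.80 ± 0.10, adjusted p = 0.00221).

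The response itself differed between the genotypes for 19 of the 29 tested members. The iNOS-/- response minus the WT response was positive for Wars, Rars and Ears2 and negative for 16 genes, 8 cytosolic and 8 mitochondrial. A negative value covers a lesser rise, a reversal and a deeper fall in iNOS-/- cells alike. Among the mitochondrial genes, Aars2 turned to 0.06 when the scaling line had an intercept and to 0 with a floor of 16. Pars2 was called in 3 of 17 alternatives. Background shares in this comparison were 20.1% called positive and 23.6% called negative. The median difference was -0.37 for the cytosolic and -0.98 for the mitochondrial genes, against -0.05 for all genes tested. Single arrays ended the call of Aars2 (-2.09 without WT unstimulated replicate 2 or iNOS-/- M1 replicate 1), Fars2 (-0.62 to -0.70 without WT unstimulated replicate 1, WT M1 replicate 2 or either iNOS-/- unstimulated array), Mars2 (-0.87 to -0.96 without replicate 1 of WT unstimulated, WT M1 or iNOS-/- M1 or replicate 2 of iNOS-/- unstimulated) and Rars, as given above. Farsb was not called without any array but WT M1 replicate 2 (-0.51 to -0.66), Lars not without any array (-0.37 to -0.50), and Pars2 not without WT unstimulated replicate 1, iNOS-/- M1 replicate 2 or any WT M1 or iNOS-/- unstimulated array (-0.64 to -0.85).

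The genotypes were also compared directly, before and after activation, and these comparisons share arrays with the responses above. Before stimulation, 8 cytosolic genes were higher in iNOS-/- than in WT cells (Aars, Gars, Iars, Kars, Lars, Mars, Qars and Vars), Farsb was lower, and the median was 0.38. Of the mitochondrial genes Ears2, Sars2 and Vars2 were higher and 0 lower, with a median of 0.32. Over all genes 17.9% were called higher and 16.2% lower, with a median of 0. Among called genes the differences were widest for Vars (1.46 ± 0.08, 2.75-fold, adjusted p = 0.000356), Mars (1.38 ± 0.23, 2.6-fold, adjusted p = 0.00914), Iars (0.82 ± 0.11, adjusted p = 0.00435) and Ears2 (0.80 ± 0.12, adjusted p = 0.00754). The calls of Farsb, Kars, Mars, Qars, Sars2 and Vars2 each depended on single arrays: Farsb was not called without WT unstimulated replicate 2 (-0.57) or iNOS-/- unstimulated replicate 1 (-0.57), and Mars without WT unstimulated replicate 1 (1.3) or iNOS-/- unstimulated replicate 1 (1.35). Vars2 was not called without either WT unstimulated array (0.70) or iNOS-/- unstimulated replicate 1 (0.60), and Sars2 not without either WT unstimulated array (0.53 to 0.69) or iNOS-/- unstimulated replicate 2 (0.45). Kars was not called without any single unstimulated array (0.36 to 0.42), and Qars not without any single array (0.27 to 0.38).

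After activation, 5 cytosolic genes were higher in iNOS-/- than in WT cells (Aars, Kars, Rars, Wars and Gars, which stood at -0.09 under quantile normalization and neqc) and 5 lower (Dars, Farsb, Qars, Sars and Vars), with a median of 0.16. Of the mitochondrial genes, Ears2 was higher and 8 were lower (Fars2, Iars2, Lars2, Mars2, Pars2, Sars2, Vars2 and Aars2, which stood at 0.30 with an intercept in the scaling line), with a median of -0.76. Over all genes 23.7% were called higher and 26% lower, with a median of -0.03. Ears2 had the widest difference of the family, 1.97 ± 0.12 (3.91-fold, adjusted p = 0.000314). Wars followed in the same direction at 1.45 ± 0.11 (2.74-fold, adjusted p = 0.000463), with all 4 of its probes called at 1.09 to 1.68. On the lower side stood Lars2 (-1.28 ± 0.18, adjusted p = 0.00302), Farsb (-1.22 ± 0.10, adjusted p = 0.000663) and Vars (-0.88 ± 0.08, adjusted p = 0.000924). Aars2 was called lower (adjusted p = 0.0232), but with its probe undetected in iNOS-/- M1 cells no fold could be bounded away from 1.

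Several of the mitochondrial calls between the M1 groups rested on single arrays. Without WT M1 replicate 2 or without iNOS-/- M1 replicate 2, 5 mitochondrial genes were called in place of 9. Aars2 was not called without WT M1 replicate 2 (-1) or either iNOS-/- M1 array (-1.24 and -1.49), and Pars2 not without either WT M1 array (-0.75) or iNOS-/- M1 replicate 2 (-0.61). Sars2 was not called without any single M1 array (-0.49 to -0.59), and Mars2 not without any single WT or iNOS-/- M1 array (-0.41 to -0.68). In the cytosolic set the Gars call was lost without WT M1 replicate 1 (0.32) or either iNOS-/- M1 array (0.35 to 0.41). Fars2, Iars2, Lars2, Vars2 and Ears2 kept their calls in all 18 alternatives, as did Aars, Kars, Wars, Dars, Farsb, Qars, Sars and Vars.

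**Figure D4:**
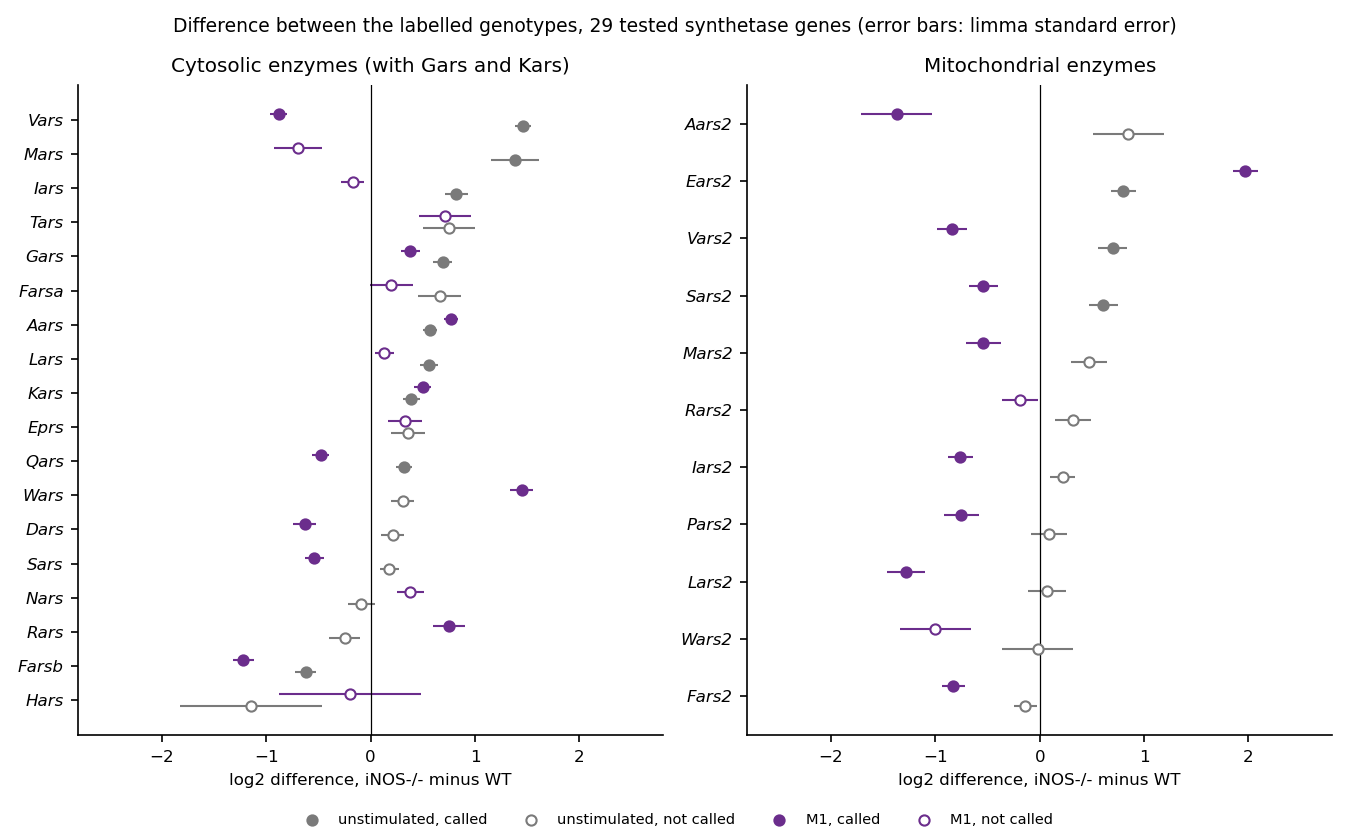
Log2 difference between the labelled genotypes (x axis, iNOS-/- minus WT, bars ± SE) for the 29 tested synthetase genes, unstimulated (grey) and M1 (purple), with filled points called. Vars moves from 1.46 before to -0.88 after activation, Ears2 from 0.80 to 1.97 and Wars from 0.31 to 1.45.

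**Figure D5:**
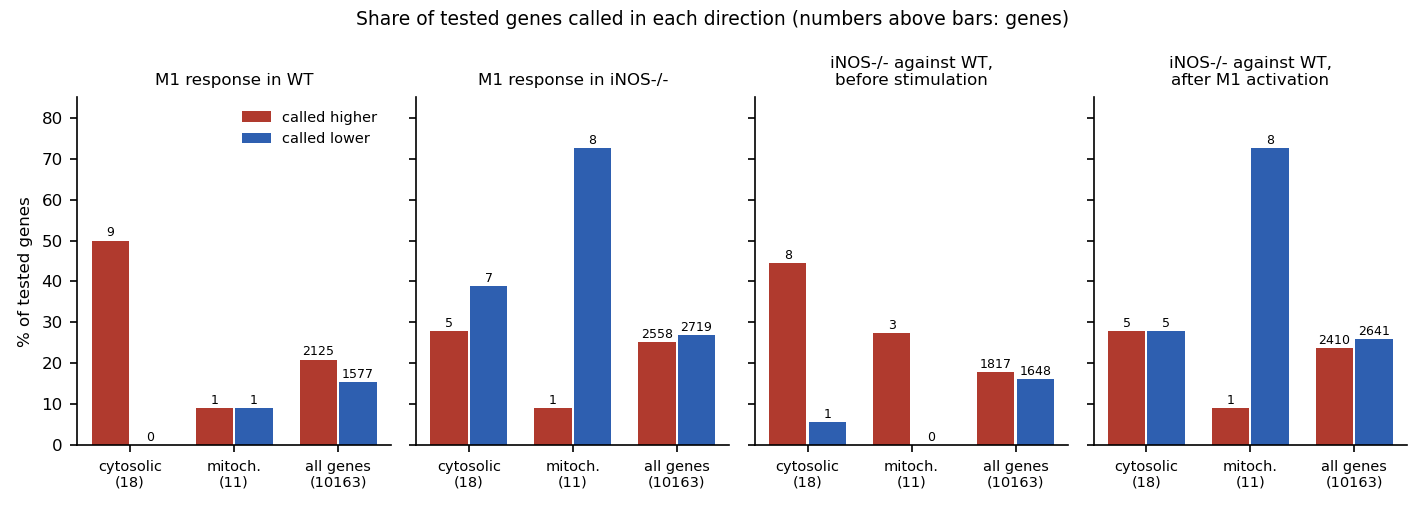
Share of tested genes called higher (red) or lower (blue) in 4 comparisons (y axis, % of tested genes), for the 18 cytosolic and 11 mitochondrial synthetase genes and all 10163 genes, with the number of genes above each bar. The mitochondrial bars for called lower reach 72.7% in the iNOS-/- response and between the M1 groups, where the bars for all genes stand at 26.8% and 26%.

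Other divisions of the family cut across these results. Of the 8 cytosolic synthetases in the multi-synthetase complex (Dars, Eprs, Iars, Kars, Lars, Mars, Qars and Rars), 4 rose and 0 fell in WT (median 0.39), and 2 rose and 4 fell in iNOS-/- cells (median -0.07). Of the 10 tested outside it, 5 rose and 0 fell in WT (median 0.65), and 3 rose and 3 fell in iNOS-/- cells (median 0.17). The 14 tested enzymes with a class I fold had 5 rises and 0 falls in WT and 3 and 9 in iNOS-/- cells, and the 14 of class II had 5 and 1, then 3 and 6. Eprs, which joins an enzyme of each class, was left out of that division. Of the tested mitochondrial enzymes Ears2, Iars2, Lars2, Mars2, Rars2, Vars2 and Wars2 are class I, and Aars2, Fars2, Pars2 and Sars2 class II. The part of the compartment in the shares of the 2 classes was not tested. Shares called higher in WT were 50%, 50%, 35.7% and 35.7% in the order given, against 20.9% of all genes. Shares called lower there were 0%, 0%, 0% and 7.14%, against 15.5%. In iNOS-/- cells 25%, 30%, 21.4% and 21.4% were called higher, near the 25.2% of all genes. Shares called lower there were 50%, 30%, 64.3% and 42.9%, against 26.8%.

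The scaffold proteins of the complex did not move together. Eef1e1 stood at 6.9 and 6.94 in WT unstimulated, 7.16 and 7.21 in WT M1, 7.21 and 7.14 in iNOS-/- unstimulated and 7.73 and 7.74 in iNOS-/- M1 cells. It rose in iNOS-/- cells by 0.56 ± 0.08 (adjusted p = 0.00266), with 0.26 ± 0.08 in WT (adjusted p = 0.051). Aimp2, listed under its older symbol Jtv1, read 5.82 and 6.01, 6.58 and 6.23, 6.46 and 6.62, and 5.94 and 5.48 in that order, a change of -0.83 ± 0.21 in iNOS-/- cells (adjusted p = 0.0221) and of 0.49 ± 0.21 in WT (adjusted p = 0.128). Aimp1, listed as Scye1, ranged from 8.18 to 8.97 and had no called change.

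Letters of known response elements were searched in the promoters of the members, from 250 bases before to 50 after the annotated start, in RefSeq sequences of GRCm38.p6. Of the 34 members 25 had an entry, 13 cytosolic and 12 mitochondrial, and Cars, Hars, Hars2, Lars, Nars, Pars2, Rars, Vars and Wars had none. TGATGNAA, the core of the C/EBP-ATF element that ATF4 binds, was searched on either strand. It was found for 5 cytosolic genes (Aars, Gars, Iars, Tars and Yars) and 0 mitochondrial ones. That is 20% of the 25 members, against 4.51% of all 27025 genes with an entry. TTCNNNGAA, the gamma-activated site, was in Aars, Kars and Nars2 (12%, against 9.55% of all genes). GAAANNGAA, the core of the interferon-stimulated element, was in Qars (4%, against 9.76%). CACGTG, the E-box, was in Aars, Farsb, Iars, Tars and Ears2 (20%, against 8.09%). The stretches from 120 bases before to 20 after the start are shown for the 5 promoters with TGATGNAA, with the match, or its reverse complement, in capitals. In order they are chr8:111033722-111033861 (+), chr6:55037881-55038020 (+), chr13:49682010-49682149 (+), chr15:11399639-11399778 (-) and chr4:129189783-129189922 (+), each read along its gene's strand.
Aars: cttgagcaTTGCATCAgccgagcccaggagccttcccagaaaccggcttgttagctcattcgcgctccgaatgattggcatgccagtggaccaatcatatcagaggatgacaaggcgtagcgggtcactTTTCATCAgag
Gars: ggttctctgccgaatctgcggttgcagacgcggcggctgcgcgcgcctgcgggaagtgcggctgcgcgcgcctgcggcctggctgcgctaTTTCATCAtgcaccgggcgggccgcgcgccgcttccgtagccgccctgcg
Iars: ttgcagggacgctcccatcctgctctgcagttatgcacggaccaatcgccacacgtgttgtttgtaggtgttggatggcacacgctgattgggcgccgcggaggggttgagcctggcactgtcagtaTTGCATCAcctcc
Tars: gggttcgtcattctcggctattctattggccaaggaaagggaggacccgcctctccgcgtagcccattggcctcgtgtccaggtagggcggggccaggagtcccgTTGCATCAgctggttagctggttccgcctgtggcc
Yars: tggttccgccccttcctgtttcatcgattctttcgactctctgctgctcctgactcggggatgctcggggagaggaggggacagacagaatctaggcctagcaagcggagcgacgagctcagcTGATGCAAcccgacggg

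In Aars the matches spanned positions -112 to -105 and 10 to 17 from the start, in Gars -30 to -23, in Tars -15 to -8, in Iars 8 to 15 and in Yars 4 to 11. The match in Yars was on the gene's own strand and the others on the opposite strand. Of these 5 genes, Aars and Gars rose in WT, Tars had no called change there, Iars was called higher by 1 of its 2 tested probes, and Yars was not detected. In iNOS-/- cells Aars and Gars rose, Gars not under quantile normalization or neqc. Tars had no called change there either, and the 2 tested probes of Iars were called lower (-0.75 and -0.70). Kars, Mars, Qars, Sars and Sars2 rose in WT with an entry but no match to TGATGNAA. A match is a run of letters and not a measured binding site.

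Lists of related genes are given beside the family. The shares of all genes called higher and lower were 20.9% and 15.5% in WT and 25.2% and 26.8% in iNOS-/- cells. Between the M1 groups they were 23.7% and 26%. Of 28 tested genes of the amino acid response and ATF4 targets, 12 rose and 4 fell in WT (median 0.66), and 8 rose and 6 fell in iNOS-/- cells (median -0.20). In WT the called rises included those of Asns, asparagine synthetase (3.33 ± 0.14), the glutathione-degrading enzyme Chac1 (at least 6.32-fold) and the amino acid transporter Slc1a4 (at least 1.49-fold), the last a bound that gives it no rank. In iNOS-/- cells the called changes included rises of the cystine transporter subunits Slc7a11 (2.41 ± 0.09) and Slc3a2 (1.65 ± 0.16). The stress sensor Sesn2 fell there (-1.44 ± 0.18). Between the M1 groups the 8 higher and 7 lower genes included Slc3a2 (1.59 ± 0.16), Sesn2 (-1.65 ± 0.18) and the glutamine transporter Slc1a5 (at least 2.47-fold lower). Atf4 itself fell by 0.37 in WT (SE 0.09, adjusted p = 0.0337) and rose by 0.36 ± 0.09 in iNOS-/- cells (adjusted p = 0.0253).

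All 16 tested genes of the interferon-γ response rose in WT (median 1.97), and 15 rose and 1 fell in iNOS-/- cells (median 2.77). The chemokines Cxcl9 (11.7 ± 0.55) and Cxcl10 (8.32 ± 0.14) and the class II transactivator Ciita (3.43 ± 0.11) led in WT. In iNOS-/- cells Cxcl9 (10.43 ± 0.55), Cxcl10 (7.74 ± 0.14) and Indo (5.24 ± 0.11), the tryptophan-degrading Ido1, had the widest rises. Cxcl9 lay near the floor on the WT unstimulated arrays (0.82 and 2.58, detected on 1 of them). Its rises in the 2 genotypes are therefore not ranked against each other. Between the M1 groups 14 were higher and 1 lower in iNOS-/- cells, with Indo at 3.1 ± 0.11 and the immunoproteasome subunit Psmb9 at 1.54 ± 0.15. Wars was on the higher side in each of these comparisons.

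Of 15 tested mitochondrial translation factors and transamidation enzymes, 1 rose and 2 fell in WT (median -0.10), and 0 rose and 7 fell in iNOS-/- cells (median -0.49). Between the M1 groups 2 were higher and 7 lower (median -0.30). Qrsl1, a subunit of the transamidase that acts after Ears2, rose by 0.56 ± 0.12 in WT and fell by 1.86 in iNOS-/- cells (SE 0.12, adjusted p = 0.000193), opposite to Ears2 there. Mto1, which modifies mitochondrial tRNAs, fell by 1.17 in iNOS-/- cells (SE 0.11), and the release factor gene Mtrf1l fell by 0.95 in WT (SE 0.14). The initiation factor gene Mtif2 was at least 1.45-fold lower after activation in WT and at least 1.6-fold lower in iNOS-/- cells.

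Cytosolic elongation factors and their regulators, among them Eef1a1, which carries charged tRNAs to the ribosome, and the translocase Eef2, were 2 higher and 1 lower of 7 in WT (median 0.01), and 2 higher and 2 lower in iNOS-/- cells (median -0.07). Eef2 rose by 0.94 ± 0.09 and Eef1g by 0.65 ± 0.09 in WT, while Eef1a2 fell by 1.45 (SE 0.23). In iNOS-/- cells Eef1a1 rose by 0.42 ± 0.08, Eef1a2 fell by 1 (SE 0.23), and Eef2k, the kinase of Eef2, was at least 1.42-fold lower. Of 11 tested genes of cell growth, 2 rose and 1 fell in WT (median 0.18), and 2 rose and 3 fell in iNOS-/- cells (median -0.22). Cad, which starts pyrimidine synthesis, rose by 1.88 ± 0.09 in WT and fell by 2.62 in iNOS-/- cells (SE 0.09), the same directions as Vars and Mars.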

How the data were processed

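RNA samples of bone marrow-derived macrophages were hybridised to 8 Illumina bead arrays, which the labels name MouseRef-8 and the methods MouseWG-8. The authors deposited a GenomeStudio report with the bead-averaged intensity of each probe, not normalized between arrays, with its p-value of detection. The submitters' notes name limma 3.14.4. The methods describe background subtraction, although the file header names none. Intensities of undetected probes lay around 0, so none was subtracted again.

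Arrays were brought to a common scale with a robust regression without intercept (MASS 7.3.60.0.1) on the array mean over rank-invariant probes (rank within 0.05 of the mean array's, between 0.5 and 0.9 of all ranks). Scale factors were 0.813 to 1.3. Values under 1 were set to 1 and log2 was taken. A model of 4 groups was fitted in limma 3.58.1 under R 4.3.3 (lmFit, eBayes), with 2-sided p-values adjusted by Benjamini-Hochberg over 13868 probes detected at p under 0.05 on at least 2 arrays. A gene with several probes was given by the brightest, and background shares count 10163 genes in the same way. The number of arrays limits the precision. The procedure was tested on simulated data with changes set only in brighter probes, which does not cover dim members such as Aars2, Wars2, Hars and Pars2.

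A probe undetected on both arrays of a group has only a bound there. To set it, the dim probe was placed on each array at its measured value or at the lowest signal of any detected probe, whichever was greater, and these were averaged and compared with the mean of the bright group. Such a bound makes no allowance for the spread of the bright group. The p-values belong to the fitted changes and not to the bounds.

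The members and the gene lists were chosen with earlier results of these data known. Named with values on every array were the 6 largest called changes in each M1 response and between the M1 groups, the 4 largest before stimulation and in the difference of responses, Wars, Wars2, Gars, Kars and the complex with its scaffold. Of other lists the 3 largest called changes per comparison could be named, and those of both M1 responses, with some between the M1 groups, are given. Atf4 was named after its values were seen. Some genes of these lists are not reported here. Symbols are those of the array, and all 34 were matched to RefSeq by gene ID. Alternatives were quantile normalization, neqc, a floor of 16, no detection filter, detection on all 8 arrays, the compared groups alone, a replicate block, an intensity trend, the mean of a gene's probes, each array left out and, chosen after seeing the data, an intercept in the scaling line. All value columns had a sample.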

Additional observations from a re-analysis of the deposited data

Results flagged for a closer look

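The M1 response differed between the genotypes by an interaction contrast in limma for 19 synthetase genes. They are given here as log2 differences (iNOS-/- response minus WT response) with adjusted p. Of the tested synthetase genes 10.3% were called positive and 55.2% negative, against 20.1% and 23.6% of all genes. Larger responses in iNOS-/- cells were those of Ears2 (1.17, adjusted p = 0.00524), Wars (1.14, adjusted p = 0.00359) and Rars (1.01, adjusted p = 0.0147). Among cytosolic genes the difference was negative for Vars (-2.34, adjusted p = 0.000302), Mars (-2.08, adjusted p = 0.00586), Iars (-0.99, adjusted p = 0.00569), Dars (-0.85, adjusted p = 0.0111), Qars (-0.80, adjusted p = 0.00476), Sars (-0.72, adjusted p = 0.0101), Farsb (-0.60, adjusted p = 0.0244) and Lars (-0.43, adjusted p = 0.0422). Among mitochondrial genes it was negative for Aars2 (-2.21, adjusted p = 0.0173), Vars2 (-1.54, adjusted p = 0.00316), Lars2 (-1.35, adjusted p = 0.0101), Sars2 (-1.15, adjusted p = 0.00728), Mars2 (-1.02, adjusted p = 0.0206), Iars2 (-0.98, adjusted p = 0.00908), Pars2 (-0.84, adjusted p = 0.0383) and Fars2 (-0.69, adjusted p = 0.0198). Aars2 was undetected on both iNOS-/- M1 arrays and stood at 0 with a floor of 16. Pars2 was called in 3 of 17 alternatives, Lars in 6, Farsb in 10, Mars2 in 11, Fars2 in 13 and Rars in 15. Of the tested probes, 1 of 2 was called for Dars, Pars2 and Sars, 2 of 3 for Vars and 2 of 4 for Wars. With 2 arrays a group, no test for a single deviating array was possible.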

How the results depend on the processing

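Counts of called synthetases, both directions together, stayed within 1.5 times of those reported except for the mitochondrial genes as follows. In the WT response 1 was called in place of 2 with the compared groups alone, and 1 to 2 with an array left out. Between the M1 groups 5 were called in place of 9 with an intercept, and 5 to 10 with an array left out. Before stimulation 5 were called in place of 3 with the mean of a gene's probes, and 1 to 3 with an array left out (1 without either WT unstimulated array). Counts in 1 direction moved further. Mitochondrial genes lower in the iNOS-/- response fell from 8 to 5 with a floor of 16 or an intercept. Those lower between the M1 groups went from 8 to 5 with neqc, a floor of 16, an intensity trend, or without replicate 1 of WT M1 or of iNOS-/- M1, and to 4 with an intercept or without replicate 2 of either group. Those with a negative difference in response went from 8 to 5 with an intercept, without WT unstimulated replicate 1 or without iNOS-/- unstimulated replicate 2. Cytosolic genes lower in the iNOS-/- response went from 7 to 4 without iNOS-/- unstimulated replicate 1, those higher between the M1 groups from 5 to 3 with the compared groups alone, and those higher before stimulation from 8 to 5 without replicate 1 of either unstimulated group. In the WT response, counts of cytosolic genes lower were 1 to 2 in place of 0 under 4 alternatives. The other counts that moved by over 1.5 times in 1 direction were of 3 genes or fewer.

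Signs turned as follows, as log2 values. With a floor of 16, the difference in response of Hars was -0.07 and the unstimulated difference of Wars2 0.06. With an intercept, Aars2 gave -0.43 in the WT response, 0.30 between the M1 groups and 0.06 for the difference in response, Hars 0.31 between the M1 groups, Pars2 -0.09 before stimulation, Tars -0.03 in WT and 0.09 for the difference, and Wars2 0.21 between the M1 groups and 0.42 for the difference. With the mean of probes, the difference was 0.03 for Eprs and 0.33 for Wars2. Under neqc and quantile normalization, in that order, Gars gave -0.19 and -0.19 in the iNOS-/- response and -0.09 and -0.09 between the M1 groups, Aars -0.30 and -0.31 and Eprs 0.10 and 0.11 for the difference, Pars2 -0.04 and -0.07 before stimulation, Rars2 -0.06 and -0.07 and Tars -0.08 and -0.12 in WT, and Tars 0.15 and 0.20 for the difference. Aars2 gave -0.04 in WT under quantile normalization. With an array left out, values crossed 0 in WT for Lars2 (-0.27 to 0.03), Pars2 (-0.23 to 0.17), Tars (-0.25 to 0.36), Rars2 (-0.03 to 0.13) and Aars2 (-0.02 to 0.71), and in iNOS-/- cells for Farsa (-0.10 to 0.42) and Tars (-0.19 to 0.23). They did so between the M1 groups for Rars2 (-0.43 to 0.04), before stimulation for Lars2 (-0.08 to 0.22), Pars2 (-0.11 to 0.28) and Wars2 (-0.46 to 0.42), and for the difference of Eprs (-0.19 to 0.14), Tars (-0.35 to 0.27) and Hars (-0.08 to 1.97). The cause of these turns was not tested. The intercept moved the median of all probes in the iNOS-/- response from 0 to 0.20, between the M1 groups from -0.03 to 0.24 and for the difference from -0.05 to 0.33.

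With a replicate block the calls numbered 9 cytosolic and 2 mitochondrial in WT, 11 and 9 in iNOS-/- cells, 11 and 8 between the M1 groups, 9 and 3 before stimulation, and 9 and 8 for the difference in response. Deviations of equally numbered arrays correlated at -0.038 to 0.025, so the numbers were not taken as pairs. A block for the chip was not run, as the columns used here name no chip. Dim members (Aars2, Wars2, Hars, Pars2) are limited by signal over background.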
